A study of Mus musculus with 10 samples.

Results

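The genes described here are 10 components of the Wnt signal that zonates the liver lobule: the ligands Wnt2 and Wnt9b, the potentiator Rspo3, the feedback and target genes Axin2, Lgr5, Tbx3, Nkd1, Znrf3 and Rnf43, and Glul, which encodes glutamine synthetase. They were taken by name from each of the 2 liver count tables of the series, 10 of 55487 gene identifiers in each table, and all 10 passed the filter on low counts in both. The tables come from whole livers of 8-week-old male C57BL/6J mice, per the labels, that had undergone partial hepatectomy (PHx), a surgery that takes out most lobes, so the tissue was in the course of regrowth. The first table holds 3 livers from mice given a high-fat diet (HFD) over the 7 days ahead of PHx and 3 from mice on chow, all taken at 40 h, and is called the diet experiment. The other, called the inhibitor experiment, holds 4 libraries from mice that were injected with 40 mg/kg SSO on the day before PHx and 4 from mice injected with solvent alone (vehicle), all taken at 48 h. SSO is not spelled out in the labels and commonly stands for sulfosuccinimidyl oleate, which blocks fatty acid uptake through CD36. No liver without surgery entered either table, so neither comparison shows what PHx itself did to these genes.

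In the liver lobule, endothelial cells of the central vein release Wnt ligands and R-spondin 3, and the hepatocytes next to the vein respond through beta-catenin. That response keeps up the pericentral programme, with glutamine synthetase in the innermost ring of hepatocytes, and restrains the periportal programme of urea synthesis and gluconeogenesis. Axin2, Nkd1, Znrf3 and Rnf43 are both targets and brakes of the pathway, so their transcripts are widely read as a measure of its activity.

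Total counts per library were 31.9 to 39.9 M for diet livers and 25.2 to 30.4 M for inhibitor livers. The lowest count of any of the 10 genes in any library was 13. The 4 vehicle libraries were the least alike: transcripts encoded by the mitochondrial genome took 4.99% to 22.5% of their counts, with the highest share in vehicle 2, against 15.2% to 17.6% in SSO libraries. All 8 inhibitor libraries lacked Ddx3y, a Y-linked gene, and carried Xist, the transcript of the inactive X chromosome, at 1580.5 to 1772 CPM (counts relative to library size, with sizes scaled by the trimmed mean, TMM) in SSO libraries and 698 to 1608 CPM in vehicle libraries, which goes against the male label. The diet libraries had Ddx3y at 55.0 to 76.3 CPM and Xist at no more than 0.620 CPM. The diet design names 3 individuals per group, whereas the inhibitor labels give 8 mice per group for 4 libraries, so p-values there measure only the spread between these libraries. More than 10% of the exon length lies under another gene for some genes named below, which makes their counts uncertain: 38.1% for Notum, 29.6% for Sds, 23.4% for Ccnd1, 14.6% for Ctnnb1 and 12.5% for Ccna2 on the opposite strand, and 61.4% for Rhbg and 18.75% for Spp1 on the same strand. The tissue label fitted the data: the 7 hepatocyte markers, among them albumin, summed to at least 48495 CPM in every library.

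The sequences just upstream of Wnt9b, Axin2 and Glul are shown because these genes gave the 3 patterns described below: lower in HFD livers, overlapping between all groups, and split among vehicle livers. Each run is the 250 bases before the RefSeq transcription start on GRCm38.p6, written 5′ to 3′ on the strand of the gene, with capitals marking the GC box GGGCGG or its reverse complement CCGCCC. The Wnt9b run lies at chr11:103749822-103750071 on the minus strand, the Axin2 run at chr11:108920099-108920348 on the plus strand, and the Glul run at chr1:153899679-153899928 on the plus strand.
Wnt9b: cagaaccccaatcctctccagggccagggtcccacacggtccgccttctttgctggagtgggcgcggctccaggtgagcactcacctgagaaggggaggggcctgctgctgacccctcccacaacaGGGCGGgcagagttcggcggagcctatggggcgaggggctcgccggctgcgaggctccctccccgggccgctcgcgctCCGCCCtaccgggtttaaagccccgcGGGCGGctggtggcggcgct
Axin2: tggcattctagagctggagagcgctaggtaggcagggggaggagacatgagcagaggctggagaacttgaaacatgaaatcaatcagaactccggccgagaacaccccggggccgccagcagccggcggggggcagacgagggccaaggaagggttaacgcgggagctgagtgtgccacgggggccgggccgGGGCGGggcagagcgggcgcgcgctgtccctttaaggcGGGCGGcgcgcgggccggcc
Glul: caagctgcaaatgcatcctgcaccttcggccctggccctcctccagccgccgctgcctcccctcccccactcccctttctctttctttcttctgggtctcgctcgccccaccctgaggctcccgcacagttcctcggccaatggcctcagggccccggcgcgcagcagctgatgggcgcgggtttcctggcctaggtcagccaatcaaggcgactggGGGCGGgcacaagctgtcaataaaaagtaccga
The Wnt9b run held 3 GC boxes, the Axin2 run 2 and the Glul run 1, and their GC content was 72.0%, 69.2% and 64.8%. RefSeq entries matched 6 of the 10 genes with 7 promoters, and GC boxes lay in those of Axin2, Glul, Wnt2 and Wnt9b, against 32.7% of 32851 promoters of the same length. The core of the TCF/LEF motif, CTTTGA or TCAAAG, was in 0 of the 6 and in 13.8% of all promoters. The TATA box, TATAAA on the strand of the gene, was in 0 of the 6 and in 7.59% of all. These matches describe letters in a short window and say nothing of binding there or elsewhere.

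HFD against chow asks how a short fat load before surgery altered the regenerating liver. None of the 10 genes passed an adjusted p of 0.05 in edgeR's quasi-likelihood test with Benjamini-Hochberg adjustment over 15589 genes, a threshold that 2.32% of all genes passed. The ligands and Rspo3 were the genes with the lowest HFD values relative to chow, while 4 of the 6 feedback and target genes lay above 0 and 2 below. The median log2 fold change of the 10 genes was -0.16, against -0.02 for all genes tested. At an unadjusted p under 0.05 stood 2 of the 10, Wnt9b and Rspo3, against 15.0% of all genes.

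Wnt9b (ENSMUSG00000018486, chr11:103727364-103749821, minus strand) encodes a ligand made by central vein endothelium in mouse liver. Its level was 1.71, 1.48 and 2.24 CPM in HFD livers, against 4.62, 3.61 and 9.25 CPM in chow livers. Every HFD value lay below every chow value, and chow 3 stood well above the other chow livers. The mean was 1.81 ± 0.392 CPM in HFD livers and 5.83 ± 3.01 CPM in chow livers (SD, n = 3 each). In the edgeR fit the gene was 3.21-fold lower in HFD livers, a log2 fold change of -1.68 ± 0.38 (SE) with a 95% interval of -2.55 to -0.81, and its Benjamini-Hochberg adjusted p was 0.0622. This is the narrowest miss of the threshold among the 10 genes. Without chow 3 the log2 fold change was -1.19 (edgeR adjusted p = 0.101), and without chow 1 it was -1.82 (edgeR adjusted p = 0.0454, where 4.25% of all genes were called). DESeq2 called the gene (adjusted p = 0.000782), in a fit that called 5.36% of all genes, as did edgeR without the filter on low counts (adjusted p = 0.00154, 2.56% of genes called).

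Rspo3 (ENSMUSG00000019880, chr10:29452416-29535867, minus strand) encodes R-spondin 3, a secreted protein that keeps Wnt receptors at the cell surface by way of Lgr receptors and the ligases Znrf3 and Rnf43. It measured 4.55, 4.71 and 4.14 CPM in HFD livers, against 6.80, 5.78 and 8.64 CPM in chow livers. Here too the groups did not overlap, and the HFD livers were close to one another. The log2 fold change was -0.66 ± 0.22 (SE), with a 95% interval of -1.16 to -0.16 and an edgeR adjusted p of 0.197, so the difference did not pass the test across genes. Of its exon length, 13.1% lies under Gm48159 on the other strand, a gene with 0 counts in all 14 libraries.

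Wnt2 (ENSMUSG00000010797, chr6:17988940-18030585, minus strand) encodes a ligand of sinusoidal and central vein endothelium. Its values were 2.12, 1.30 and 3.60 CPM in HFD livers and 2.93, 3.27 and 5.16 CPM in chow livers. The groups overlapped, since HFD 3 lay above chow 1 and chow 2. The log2 fold change was -0.69 ± 0.40 (SE), with a 95% interval of -1.60 to 0.22 (edgeR adjusted p = 0.479). Thus 2 of the 10 genes had groups that did not overlap, Wnt9b and Rspo3, both lower in HFD livers. Over all genes tested, 21.9% had such groups and 10.8% were lower in every HFD liver, so a count of 2 in 10 is near that background.

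Summed markers of vessel and stellate cells were also lower in HFD livers, apart from those of sinusoidal endothelium. The 4 markers of central vein endothelium other than Wnt9b and Rspo3, which were Thbd, Kit, Cdh13 and Vwf, summed to 28.1, 22.6 and 23.8 CPM in HFD livers and to 30.6, 39.8 and 60.7 CPM in chow livers. Chow 3, the library with the highest Wnt9b, also had the highest sum. The 8 markers of endothelium of any vessel summed to 119 to 138 CPM in HFD livers and 145 to 175 CPM in chow livers, and the 10 stellate cell markers to 323 to 377 CPM in HFD livers and 436 to 513 CPM in chow livers. Of these, 7 vessel markers had log2 fold changes below 0 and 1 above, and 8 stellate markers below and 2 above. Dcn and Ecm1 took much of the stellate sum, with means of 137 and 71.8 CPM in HFD livers and 206 and 108 CPM in chow livers. The 10 sinusoidal markers overlapped, at 163 to 202 CPM in HFD livers and 159 to 259 CPM in chow livers. No marker of these lists was at 0 in any diet library, and 0 genes of these 4 lists passed the edgeR test. Their part in the Wnt9b and Rspo3 values was not tested, and in whole liver fewer cells of a type and less RNA per cell cannot be told apart.

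The feedback and target genes gave no difference that passed the test in HFD livers. Axin2 (ENSMUSG00000000142, chr11:108920349-108950783, plus strand), a scaffold of the complex that destroys beta-catenin, measured 17.8, 10.5 and 15.4 CPM in HFD livers and 9.99, 15.0 and 12.4 CPM in chow livers. The highest value was in an HFD liver and the lowest in a chow liver, with full overlap between. Its log2 fold change was 0.22 ± 0.23 (SE), and the 95% interval ran from -0.29 to 0.74. Lgr5 (ENSMUSG00000020140, chr10:115450311-115587780, minus strand), a receptor for R-spondins, measured 9.32, 18.0 and 11.0 CPM in HFD livers against 14.3, 15.8 and 15.5 CPM in chow livers. HFD 2 lay above all chow livers and the other HFD livers below them, and the 95% interval was -0.78 to 0.28. Znrf3 (ENSMUSG00000041961, chr11:5276324-5444847, minus strand), a ligase that removes Wnt receptors from the membrane, measured 16.6, 16.5 and 16.6 CPM in HFD livers and 16.7, 15.7 and 12.0 CPM in chow livers. Its 95% interval of -0.19 to 0.52 was the narrowest of the 10 genes in this comparison.

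Rnf43 (ENSMUSG00000034177, chr11:87662722-87735539, plus strand), the related ligase, measured 52.2, 40.3 and 33.0 CPM in HFD livers and 28.5, 29.7 and 46.0 CPM in chow livers. The groups overlapped through chow 3. Tbx3 (ENSMUSG00000018604, chr5:119670669-119684724, plus strand), a T-box repressor found in pericentral hepatocytes, ranged over 41.3 to 88.0 CPM in HFD livers and 30.2 to 77.4 CPM in chow livers. Its 95% interval of -0.60 to 1.38 was the widest of the 10 genes. Nkd1 (ENSMUSG00000031661, chr8:88521354-88594884, plus strand), which restrains Wnt signalling through Dishevelled, ranged over 6.38 to 7.91 CPM in HFD livers and 6.25 to 8.91 CPM in chow livers. The log2 fold changes were 0.27 ± 0.23 for Rnf43, 0.39 ± 0.41 for Tbx3 and -0.14 ± 0.21 for Nkd1 (SE), with edgeR adjusted p-values of 0.646, 0.729 and 0.816.

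Glul (ENSMUSG00000026473, chr1:153899944-153909723, plus strand) measured 1184, 968 and 1089 CPM in HFD livers and 1064, 1157 and 1455 CPM in chow livers. The groups overlapped, and chow 3 was the highest of the 6 livers. Its log2 fold change was -0.18 ± 0.19 (SE), with a 95% interval of -0.60 to 0.24 (edgeR adjusted p = 0.708). The processed copies Glns-ps1 and AC134576.3 match parts of the Glul transcript at 96.8% and 93.0% identity, but had at most 1.89 and 0.331 CPM in any of the 14 libraries.

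**Figure D1:**
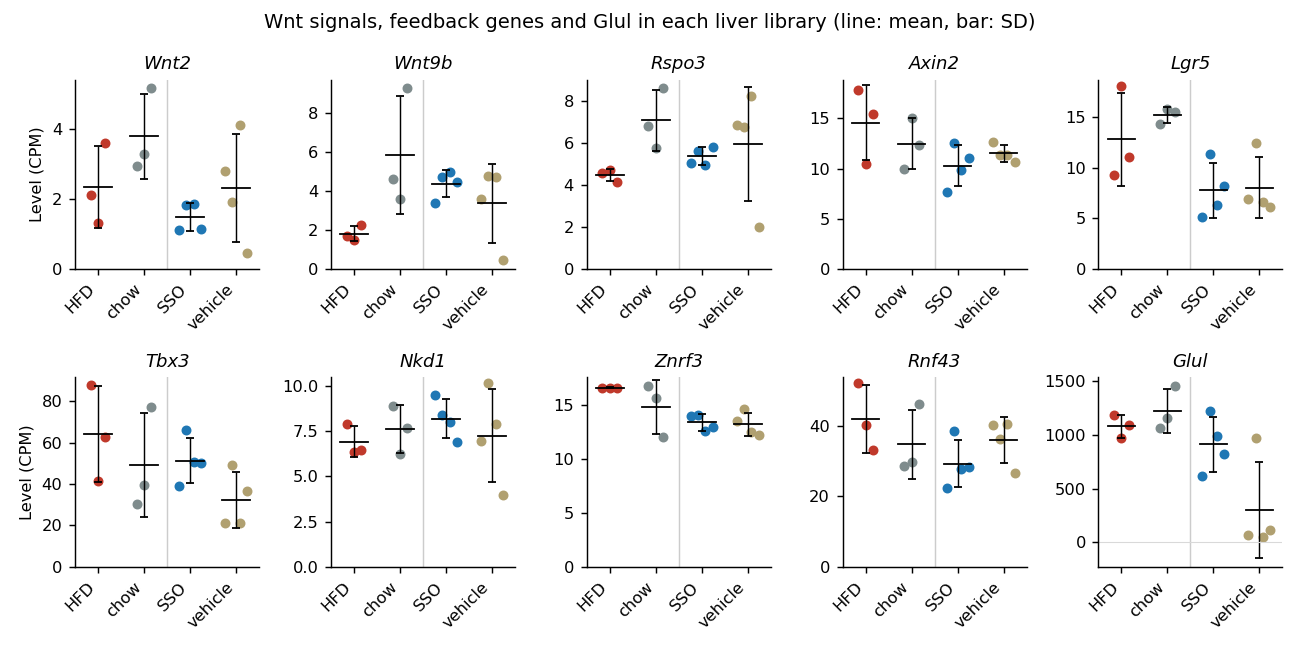
Level in CPM (vertical axes, 1 scale per gene) of each of the 10 genes in every library, by group, with the group mean as a line and the SD as a bar. Wnt9b and Rspo3 lie lower in all HFD livers than in all chow livers, and Glul is at 54.2 to 113 CPM in 3 vehicle livers but at 967 CPM in vehicle 2.

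The wider Wnt pathway gave 0 called genes in the diet comparison in each of the lists of ligands, R-spondins, secretion genes, receptors, inhibitors, destruction complex, TCF/LEF cofactors and feedback targets. Of 19 Wnt ligand genes, 7 passed the filter, and all 7 had log2 fold changes below 0 in HFD livers, from -1.68 to -0.29 with a median of -0.69. Over all genes tested, 8216 of 15589 lay below 0. Wnt9b and Wnt2 are 2 of those 7 ligands. Another, Wnt9a, had 27, 9 and 6 counts in HFD livers and 46, 54 and 20 in chow livers. It thus passed the filter mainly through the chow livers, and its sign adds nothing to the tally. Wnt5b, the most abundant ligand per length, measured 4.66, 4.35 and 5.97 CPM in HFD livers and 4.31, 15.2 and 11.5 CPM in chow livers. Its log2 fold change was -1.05 ± 0.41 (SE, edgeR adjusted p = 0.286), and chow 1 lay below every HFD liver. Wnt4 measured 2.65, 2.84 and 2.04 CPM in HFD livers and 4.18, 3.35 and 3.26 CPM in chow livers, without overlap (edgeR adjusted p = 0.406). Rspo1 lay at 0.662 to 1.39 CPM in HFD livers and 0.628 to 1.59 CPM in chow livers, and Rspo2 had no counts.

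Porcn, the enzyme that attaches a lipid to Wnt proteins before secretion, measured 3.14, 3.38 and 2.87 CPM in HFD livers and 4.77, 5.07 and 6.88 CPM in chow livers (log2 fold change -0.83 ± 0.24, SE, edgeR adjusted p = 0.130). The groups did not overlap. Wls, the carrier of secreted Wnts, had a log2 fold change of -0.01 ± 0.21 (SE). The medians over the genes that passed the filter were -0.12 for 14 of 18 Frizzled and co-receptor genes, 0.14 for 8 of 16 inhibitors, 0.04 for 15 of 16 destruction complex genes, 0.01 for 10 of 11 nuclear factors and 0.15 for 11 of 12 feedback targets. The most abundant of them per length did not pass the test: Lrp5 at 0.13 ± 0.17, Ryk at 0.05 ± 0.12, Notum at -0.04 ± 0.19, Kremen1 at 0.11 ± 0.22, Ctnnb1 at 0.28 ± 0.14, Dvl1 at -0.22 ± 0.16, Ctbp1 at 0.29 ± 0.12 and Bcl9l at -0.27 ± 0.12 (log2 fold change ± SE). Ctbp1, a corepressor, was higher in every HFD liver than in every chow liver, and Bcl9l, a beta-catenin cofactor, was lower in every HFD liver (edgeR adjusted p = 0.296 and 0.328). Ccnd1, a cyclin and reported Wnt target, stood at 0.78 ± 0.46 (SE, edgeR adjusted p = 0.498).

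Some of the zonation genes downstream of the signal passed the test in HFD livers, a threshold that 2.32% of all genes passed. More of the called zonation genes fell than rose. Of the 20 pericentral genes, 4 of which are Glul, Tbx3, Axin2 and Lgr5, 15 had log2 fold changes below 0, with a median of -0.39, and 2 fell, where 0.718% of all genes were called lower: Cyp7a1, which sets the rate of bile acid production, and Ahr, the dioxin receptor. Cyp7a1 measured 43.6, 35.0 and 67.3 CPM in HFD livers and 199.8, 200.3 and 140.2 CPM in chow livers (log2 fold change -1.89 ± 0.26, SE, edgeR adjusted p = 0.0100). Ahr measured 38.0, 42.5 and 46.3 CPM in HFD livers and 65.3, 71.4 and 81.4 CPM in chow livers (log2 fold change -0.78 ± 0.14, SE, edgeR adjusted p = 0.0231). Both were lower in every HFD liver. Oat, which makes glutamate from ornithine beside Glul, was also lower in every HFD liver without passing the test (log2 fold change -0.77 ± 0.21, SE, edgeR adjusted p = 0.107). Cyp2e1 had a log2 fold change of -0.88 ± 0.31 (SE, edgeR adjusted p = 0.216), and its groups overlapped.

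Of the 20 periportal genes, 5 fell and 1 rose in HFD livers, where 0.718% of all genes were called lower and 1.60% higher. The median of the 20 log2 fold changes was -0.74, with 13 below 0 and 7 above. Etnppl, a phospholyase, fell with a log2 fold change of -1.87 ± 0.17 (SE, edgeR adjusted p = 0.00103), and Sds, serine dehydratase, with one of -1.72 ± 0.20 (SE, edgeR adjusted p = 0.00375). The urea cycle enzymes Asl and Arg1 fell by 1.89 ± 0.26 and 1.20 ± 0.18 on the log2 scale (SE, edgeR adjusted p = 0.00806 and 0.0106). G6pc, the last enzyme of glucose release, fell by 0.91 ± 0.15 on the log2 scale (SE, edgeR adjusted p = 0.0188), and Cdh1, the epithelial cadherin, rose by 1.37 ± 0.27 (SE, edgeR adjusted p = 0.0452). Ass1 and Pck1, the most abundant periportal genes, had log2 fold changes of -1.21 ± 0.31 and -1.18 ± 0.44 (SE), and neither passed the test. Leaving out HFD 1 left 0 pericentral and 2 periportal genes called lower, and the call of Cdh1 was lost without each HFD library in turn. Cell cycle markers went the other way from most of these genes: 5 of 6 rose in HFD livers, among them Mki67 (log2 fold change 3.35 ± 0.28, SE, edgeR adjusted p = 0.00103), Ccna2, Birc5 and Ccnb1. The 6 markers summed to 300 to 462 CPM in HFD livers and 29.0 to 62.0 CPM in chow livers. Their part in the zonation values was not tested.

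**Figure D2:**
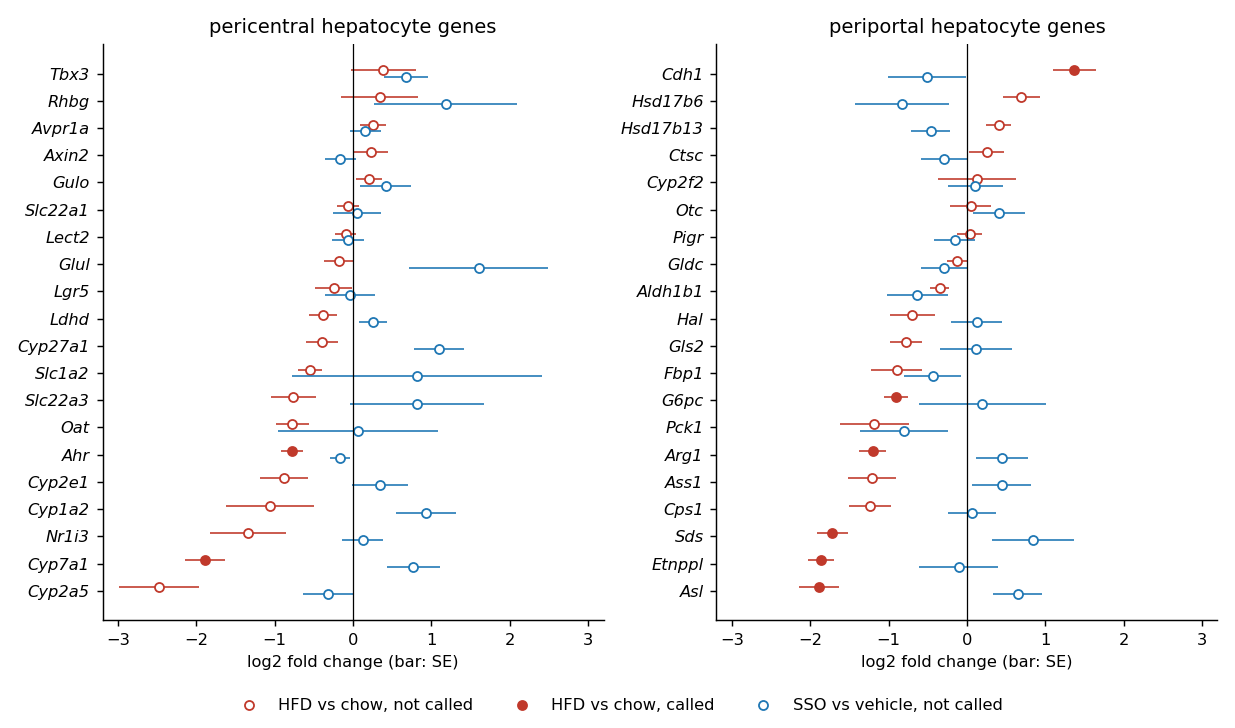
Log2 fold change with its SE (horizontal axis) of 20 pericentral and 20 periportal genes (rows) in the HFD against chow and the SSO against vehicle comparison, with filled points where the edgeR adjusted p was under 0.05. In HFD livers most genes of both lists lie below 0 while Glul, Axin2 and Lgr5 lie near 0, and in SSO livers Glul is the pericentral gene farthest above 0.

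SSO against vehicle asks what the SSO injection did to the regenerating liver. None of the 10 genes passed an adjusted p of 0.05 in edgeR's quasi-likelihood test over 15788 genes, against 0.450% of all genes. The median log2 fold change of the 10 genes was -0.01, against -0.04 for all genes tested, with 5 genes above 0 and 5 below. At an unadjusted p under 0.05 stood 1 of the 10, Tbx3, against 20.5% of all genes. None of the 10 genes had groups that did not overlap, against 11.8% of all genes. DESeq2, which called more genes than edgeR in this comparison (numbers in the last section), also called 0 of the 10.

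Glul had the largest fitted difference and the widest spread. It measured 618, 1223, 988 and 820 CPM in SSO livers, against 65.3, 967, 54.2 and 113 CPM in vehicle livers. Vehicle 1, 3 and 4 lay far below every SSO liver, and vehicle 2 lay within the SSO range. The mean was 912 ± 256 CPM in SSO livers and 300.1 ± 446 CPM in vehicle livers (SD, n = 4 each). The log2 fold change was 1.60 ± 0.89 (SE), with a 95% interval of -0.40 to 3.61 and an edgeR adjusted p of 0.337. A single library decided this value: without vehicle 2 the log2 fold change was 3.55 ± 0.35 (SE, edgeR adjusted p = 0.000514), in a fit that called 2646 genes, 16.2% of those tested. Vehicle 2 was also the library with the highest share of mitochondrially encoded transcripts, and the part of that share in the values was not tested.

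Other pericentral genes, and a further Wnt target, split the vehicle livers in the same way as Glul. These genes were chosen after their values were seen. Slc1a2, the glutamate transporter of those cells, measured 83.6, 167, 100.4 and 107 CPM in SSO livers and 0.297, 247, 0.0817 and 13.0 CPM in vehicle livers. Oat measured 1131, 1525, 1545 and 1309 CPM in SSO livers and 145, 4529.7, 125 and 463 CPM in vehicle livers. Rhbg, an ammonium transporter, measured 3.86, 3.57, 2.42 and 1.93 CPM in SSO livers and 0.0991, 4.31, 0.299 and 0.583 CPM in vehicle livers. In CPM, vehicle 2 exceeded all SSO livers in each of these genes and the other 3 vehicle livers lay below them. Their order in TPM, which carries no TMM scaling, was not compared. Slc22a3, an organic cation transporter, measured 6.94 to 9.21 CPM in SSO livers and 1.22, 15.1, 0.762 and 1.58 CPM in vehicle livers, and so had the same order. Sp5, a transcription factor and direct Wnt target, measured 4.87, 5.97, 4.99 and 6.04 CPM in SSO livers and 0.264, 3.49, 1.17 and 1.03 CPM in vehicle livers, with vehicle 2 highest of its group but below the SSO livers.

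With all libraries, 0 of the 20 pericentral genes passed the edgeR test, 15 had log2 fold changes above 0 in SSO livers and the median was 0.30. Without vehicle 2, 8 of the 20 were called higher and 0 lower, where 6.96% of all genes were called higher: Glul, Slc22a3, Cyp27a1, Oat, Rhbg, Cyp1a2, Tbx3 and Gulo. Vehicle 2 was set apart after the split in Glul, Slc22a3, Oat and Rhbg was seen. Calls of such genes follow from that choice and are given as a description. Leaving out vehicle 1 or any SSO library instead gave 0 calls over all genes. Slc1a2 had the largest log2 fold change among these transporters without vehicle 2, at 4.69 ± 1.48 (SE), and did not pass the test (edgeR adjusted p = 0.0742). Cyp2e1, expressed across a broad pericentral band, had another order, with vehicle 1 and 3 below all SSO livers and vehicle 2 and 4 among them: it measured 2684, 4377, 3488 and 3633 CPM in SSO livers and 1940.4, 3700.4, 1417 and 4099 CPM in vehicle livers. Cyp1a2, the other abundant pericentral cytochrome, had a log2 fold change of 0.94 ± 0.38 with all libraries (SE, edgeR adjusted p = 0.208). The periportal genes had a median of -0.02, with 0 of 20 called and with Ass1 and Arg1 at 0.44 ± 0.37 and 0.45 ± 0.33 (log2 fold change ± SE), and without vehicle 2 a median of 0.07 with 0 called higher and 1 lower.

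Axin2, Znrf3 and Rnf43 did not follow Glul. Axin2 measured 7.65, 12.5, 9.88 and 11.0 CPM in SSO livers, against 12.7, 11.3, 11.3 and 10.7 CPM in vehicle livers. The vehicle libraries, far apart in Glul, were close together in Axin2 on the CPM scale. In TPM, which carries no TMM scaling, they ranged from 3.48 in vehicle 2 to 7.18 in vehicle 1. The 95% interval of the log2 fold change of Axin2 was -0.60 to 0.27. Znrf3 lay between 12.6 and 14.1 CPM in SSO livers and measured 13.5, 14.6, 12.5 and 12.2 CPM in vehicle livers. All 8 values lay close together in CPM, with vehicle livers at 3.11 to 5.33 in TPM, and the 95% interval was -0.32 to 0.36. Rnf43 measured 22.4, 38.4, 27.8 and 28.2 CPM in SSO livers and 40.2, 36.3, 40.6 and 26.5 CPM in vehicle livers. Its groups overlapped, and the log2 fold change was -0.30 ± 0.20 (SE, edgeR adjusted p = 0.414).

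Lgr5 measured 5.16, 11.4, 6.35 and 8.22 CPM in SSO livers and 6.90, 12.5, 6.61 and 6.14 CPM in vehicle livers. In CPM vehicle 2 was again the highest of its group, but far less so than in Glul. In TPM it was not, with vehicle livers at 2.10, 2.05, 1.84 and 1.37. The log2 fold change of Lgr5 was -0.04 ± 0.32 (SE). Nkd1 measured 9.51, 8.37, 8.02 and 6.90 CPM in SSO livers and 6.97, 10.2, 7.89 and 3.98 CPM in vehicle livers. Vehicle 4 was lowest of all 8 in CPM and in TPM, vehicle 2 was highest in CPM but not in TPM, and the log2 fold change was 0.18 ± 0.29 (SE) with all libraries and 0.38 without vehicle 2 (edgeR adjusted p = 0.347). Tbx3 measured 38.9, 65.8, 50.7 and 49.9 CPM in SSO livers, against 21.3, 49.3, 21.2 and 36.5 CPM in vehicle livers. Vehicle 1 and 3, lowest in Glul, were also lowest in Tbx3, and in CPM vehicle 2 was the highest of its group. In TPM the vehicle livers lay closer together, at 10.0, 12.5, 9.15 and 12.6, and vehicle 4 was highest. The log2 fold change of Tbx3 was 0.68 ± 0.28 (SE), with a 95% interval of 0.05 to 1.31 (edgeR adjusted p = 0.215). Without vehicle 2 it was 0.96 ± 0.24 (SE, edgeR adjusted p = 0.0222).

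**Figure D3:**
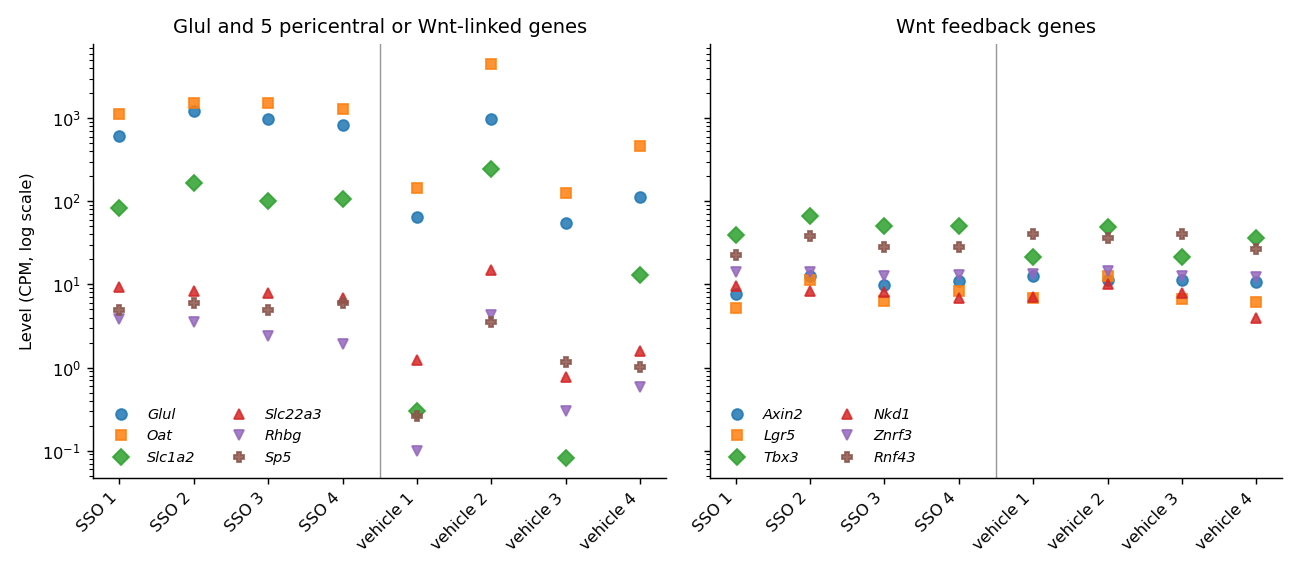
Level in CPM on a log axis in each SSO and vehicle library (horizontal axis) of Glul, Oat, Slc1a2, Slc22a3, Rhbg and Sp5 (left) and of 6 feedback and target genes (right). The genes on the left are low in vehicle 1, 3 and 4 and not in vehicle 2, whereas, on this scale, Axin2 stays between 7.65 and 12.7 CPM and Znrf3 between 12.2 and 14.6 CPM in all 8 libraries.

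The ligands split the vehicle libraries along another line. Wnt9b measured 3.38, 4.70, 4.96 and 4.47 CPM in SSO livers and 3.57, 4.77, 4.71 and 0.446 CPM in vehicle livers. Vehicle 4 alone was low, at 13 counts, and the other 7 libraries lay together. Rspo3 measured 5.05, 5.64, 4.96 and 5.83 CPM in SSO livers and 6.84, 6.76, 8.22 and 1.99 CPM in vehicle livers, and vehicle 4 was again the low library, at 58 counts. Wnt2 measured 1.11, 1.82, 1.85 and 1.14 CPM in SSO livers and 2.81, 1.91, 4.11 and 0.446 CPM in vehicle livers, so that vehicle 4 was below all other libraries and the other 3 vehicle livers above all SSO livers. For vehicle 2 this held in CPM only: in TPM its 1.43 lay below SSO 2 and SSO 3, at 1.73 and 1.70. The log2 fold changes were 0.38 ± 0.55 for Wnt9b, -0.15 ± 0.38 for Rspo3 and -0.65 ± 0.57 for Wnt2 (SE), with edgeR adjusted p-values of 0.722, 0.851 and 0.544. Vehicle 1 and 3, with little Glul, thus had Rspo3 above every SSO liver and, in CPM, Wnt9b within the SSO range. In TPM their Wnt9b was at 2.46 and 2.98, above the highest SSO liver at 2.27.

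Marker sums of other cell types also differed among the vehicle libraries. The 4 central vein markers summed to 17.4, 31.7, 19.6 and 17.2 CPM in SSO livers and to 39.0, 27.3, 28.5 and 8.67 CPM in vehicle livers, with the lowest sum in vehicle 4. The 8 markers of any vessel summed to 142 to 206 CPM in SSO livers and to 266, 159, 232 and 116 CPM in vehicle livers. The 10 sinusoidal markers summed to 188 to 339.9 CPM in SSO livers and to 394, 190.1, 357 and 178 CPM in vehicle livers. In both sums, vehicle 1 and 3 lay above every SSO liver and vehicle 4 was the lowest vehicle liver. The same vehicle 1 and 3 had the highest sums of the 8 macrophage markers. The sums were 194 to 324 CPM in SSO livers and 692, 144, 619.6 and 171 CPM in vehicle livers. Of these markers 5 had log2 fold changes below 0 and 3 above, from -4.48 for Lyz2 to 0.56 for Clec4f. The 6 cholangiocyte markers summed to 33.4 to 43.2 CPM in SSO livers and 134, 44.6, 163 and 41.3 CPM in vehicle livers. Spp1 took much of that sum, with means of 28.0 CPM in SSO livers and 83.5 CPM in vehicle livers. Of the 5 that passed the filter, 4 had log2 fold changes below 0, while Krt19 stood at 1.15 ± 0.45 (SE). None of the endothelial or macrophage markers was at 0 in any library, and at most 1 cholangiocyte marker was. The part of these cells in the values of the ligands, Glul and the feedback genes was not tested.

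Of the wider pathway, 0 genes were called in any of the 8 Wnt lists with all libraries. The median log2 fold change was -0.30 over the 6 of 19 ligands that passed the filter, -0.05 over 12 receptors, 0.02 over 7 inhibitors, -0.10 over 15 destruction complex genes, 0.09 over 10 nuclear factors and -0.04 over 11 feedback targets. Porcn measured 8.69, 8.96, 8.81 and 9.23 CPM in SSO livers and 3.14, 4.95, 4.79 and 6.17 CPM in vehicle livers, without overlap (log2 fold change 0.91 ± 0.25, SE, edgeR adjusted p = 0.111). Dvl1, which carries the signal from Frizzled, measured 211, 293, 209 and 231 CPM in SSO livers and 110.1, 158, 151 and 125 CPM in vehicle livers, also without overlap (log2 fold change 0.79 ± 0.19, SE, edgeR adjusted p = 0.106). Wls measured 3.05, 5.24, 3.17 and 2.72 CPM in SSO livers and 11.6, 5.49, 12.3 and 4.18 CPM in vehicle livers (log2 fold change -1.24 ± 0.39, SE, edgeR adjusted p = 0.136), and its groups overlapped through vehicle 4. Ctnnb1, beta-catenin itself, had a log2 fold change of -0.56 ± 0.26 (SE, edgeR adjusted p = 0.263). Without vehicle 2, where 16.2% of all genes were called, 5 of 11 feedback and target genes were called: Sp5 and Tbx3 higher, at 2.72 ± 0.46 and 0.96 ± 0.24, and Myc, Ccnd1 and Tcf7 lower, at -1.43 ± 0.26, -3.90 ± 0.76 and -1.46 ± 0.40 (log2 fold change ± SE). Porcn and Dvl1 were then also called higher, and Wls, Ctnnb1 and Frzb, a secreted Wnt antagonist, lower, while 0 of 8 ligands, 0 of 2 R-spondins and 0 of 13 receptors were called. Myc, Tcf7 and Frzb are named for these calls, after their values were seen. The choice of vehicle 2 was likewise made after the values were seen, so these calls are a description. With all libraries, Notum, a secreted enzyme that inactivates Wnt, had a log2 fold change of 0.29 ± 0.18, Lgr4 0.39 ± 0.20 and Lrp5 -0.38 ± 0.20 (SE). Of the further ligands, Wnt5b stood at -0.10 ± 0.27 and Wnt4 at 0.27 ± 0.41, Rspo1 at 0.61 ± 0.88, and Kremen1, Ctbp1 and Bcl9l at 0.04 ± 0.19, -0.28 ± 0.19 and 0.23 ± 0.17 (log2 fold change ± SE).

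Cell cycle genes also differed among the vehicle libraries. Ccnd1 measured 7.54, 4.62, 7.31 and 5.44 CPM in SSO livers and 188, 14.2, 75.4 and 16.1 CPM in vehicle livers (log2 fold change -3.56 ± 0.81, SE, edgeR adjusted p = 0.106). In Ccnd1 vehicle 1 and 3 stood far above vehicle 2 and 4. The 6 proliferation markers summed to 34.5 to 42.9 CPM in SSO livers and to 102, 38.9, 127 and 114 CPM in vehicle livers. Of the vehicle libraries only vehicle 2 lay within the SSO range of this sum, as it did for Glul. With all libraries 1 of the 6 markers, Cdk1, fell in SSO livers (log2 fold change -2.23 ± 0.38, SE, edgeR adjusted p = 0.0396).

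**Figure D4:**
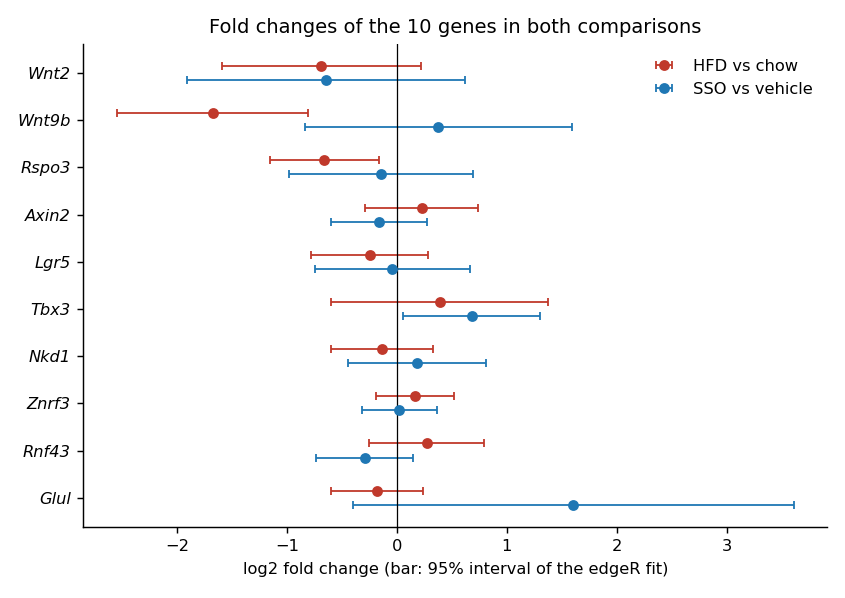
Log2 fold change (horizontal axis) with its 95% interval from the edgeR fit for each of the 10 genes (rows), HFD against chow and SSO against vehicle. The intervals of Wnt9b and Rspo3 lie below 0 in HFD livers and that of Tbx3 lies above 0 in SSO livers, and no adjusted p is under 0.05.

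Per exon length, in TPM, which sums to the same total in every library, Glul was far the most abundant of the 10 genes in every group, at 827 ± 105 TPM in HFD livers, 819 ± 75.5 TPM in chow livers, 566 ± 176 TPM in SSO livers and 169 ± 215 TPM in vehicle livers (SD). TPM carries no TMM scaling, and on it the HFD mean was not below the chow mean as it was in CPM. Tbx3 and Rnf43 came next in all 4 groups, with overlapping ranges, at 24.7 and 16.2 TPM in HFD livers, 16.2 and 11.7 TPM in chow livers, 15.9 and 9.17 TPM in SSO livers, and 11.1 and 13.8 TPM in vehicle livers. Axin2, Znrf3, Nkd1 and Rspo3 followed at 3.48 to 6.74 TPM, in an order that changed between groups and with ranges that mostly overlapped. Wnt9b was the lowest in HFD livers at 1.02 ± 0.224 TPM, and its range there did not overlap that of Wnt2, the next above it. In chow livers Wnt9b was at 2.82 ± 1.23 TPM, and its range overlapped that of Lgr5 above it. Wnt2 was lowest in SSO livers at 1.36 ± 0.412 TPM, and Lgr5 in vehicle livers at 1.84 ± 0.332 TPM.

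The genes whose pattern was most like that of Wnt9b, Axin2 and Glul were found by Pearson's r of log2 CPM over the 14 libraries, each experiment centred on its own mean, among 14904 other genes. They were picked for their r, so it is given as a description, with no p. For Wnt9b the closest gene of all was Rspo3, with r = 0.91 and Spearman's rho = 0.73. The r was 0.94 over the 6 diet libraries and 0.91 over the 8 inhibitor libraries, and 0.77 without vehicle 4 and HFD 2, the libraries farthest from the median. Next came Lhx6, Atp6v1g1, Bhlhe41 and Csnk1e, at r = 0.86 to 0.88. From the side of Rspo3, Wnt9b ranked 2 and Wnt2 ranked 13 with r = 0.82.

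For Axin2 the closest gene was Epha2, an ephrin receptor, with r = 0.86, rho = 0.93 and r = 0.89 without SSO 1 and chow 1. It was followed by Slc27a1, Mgme1, Adck2 and Cbll1, at r = 0.79 to 0.80. Of the other 9 genes, Rnf43 stood nearest to Axin2, at rank 219 with r = 0.58. For Glul the closest gene was Trak1, an adaptor of mitochondrial transport, with r = 0.97 and rho = 0.96, and r = 0.92 without vehicle 1 and 3. Ces2h, Gcgr, Susd4 and Tgfbr3l followed at r = 0.95 to 0.96. Over the inhibitor libraries alone these 5 genes had r = 0.96 to 0.99. Within the diet experiment r was 0.67 for Trak1 and Gcgr, 0.56 for Ces2h, 0.32 for Tgfbr3l and -0.79 for Susd4. The likeness to Glul thus rests mainly on the inhibitor libraries, and that of Susd4 on those alone. All these values share the depth and scaling of their libraries.

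**Figure D5:**
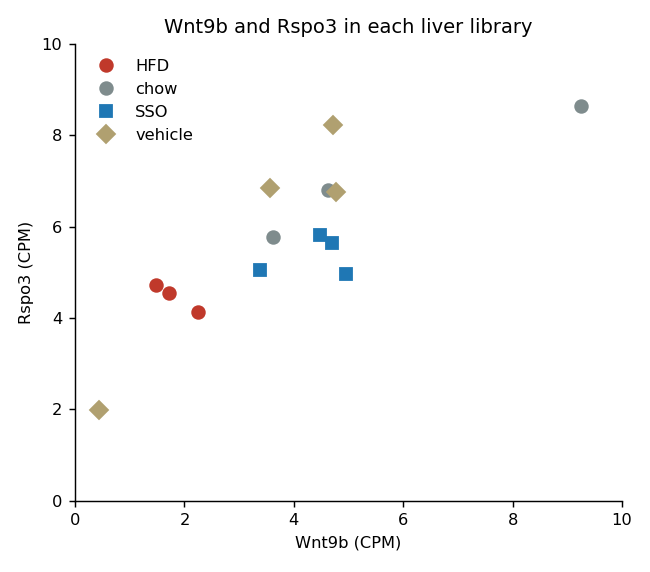
Wnt9b (horizontal axis) against Rspo3 (vertical axis), both in CPM, in each of the 14 libraries, coloured by group. The HFD livers lie together at the low end of the diet libraries, chow 3 at 9.25 and 8.64 CPM is the highest, and vehicle 4 at 0.446 and 1.99 CPM is the lowest.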

How the data were processed

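Counts of reads per Ensembl gene in 14 liver libraries were used as deposited by the authors, without normalization, from a diet table (3 HFD, 3 chow) and an inhibitor table (4 SSO, 4 vehicle). Per the submitters' processing notes the tools included featureCounts 2.0.2, HISAT2 2.2.1, DESeq2 and Trim Galore 0.6.1, and the build was GRCm38 (mm10). Per the labels' protocols RNA was selected with polyT. Strand setting and annotation release were not given in the sources used here. Therefore reads of overlapping genes on opposite strands cannot be told apart. The labels hold 1 record per group, to which columns were assigned by name. Columns named C with a number were read as chow in the diet table and as vehicle in the inhibitor table.

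Of 55487 identifiers, 55227 matched a symbol in GENCODE M21, which also gave coordinates and exon lengths. Each table was fitted alone with edgeR 4.0.16 in R 4.3.3 (TMM scaling, filterByExpr, robust quasi-likelihood test, two-sided), with Benjamini-Hochberg adjustment over all genes tested and calls at an adjusted p under 0.05. CPM uses TMM-scaled library sizes, and TPM uses exon length. A log2 fold change is the first group over the second, with its SE, and its 95% interval uses the t quantile of the fit. Groups do not overlap where every CPM of one lies beyond every CPM of the other. The fit was tested on simulated counts. No pair of libraries in a group agreed within sampling noise, by a chi-square test of their counts. A count of 0 allows up to 3 counts, 0.0752 to 0.119 CPM, for counting error only.

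The 10 genes and all lists were chosen with earlier results of these data known. Besides the 10 genes, the text names from each list and comparison up to 4 called genes by smallest p and the 2 with the highest mean TPM, and for Wnt9b, Axin2 and Glul the 5 genes most like them. Other genes were chosen after their values were seen: Slc1a2, Rhbg, Slc22a3, Sp5, Myc, Tcf7, Frzb, Cyp27a1, Gulo, G6pc and Cdh1, the markers, and Oat and Cyp1a2 in 1 of the comparisons each. Alternatives were DESeq2 1.42.0, limma 3.58.1 (voom), other scalings, no filter, a replicate block and leaving out each library. The sorted macrophage table and the single-cell records were not used here.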

Additional observations from a re-analysis of the deposited data

Results flagged for a closer look

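Among 20 sets of 4 values, the 10 genes in SSO livers and in vehicle livers, 2 had a library farther from the rest than Dixon's 95% critical value of 0.829 allows, where chance gives about 1 in 20. Both were vehicle 2. Glul was 967 CPM there, with a gap to the next vehicle liver of 0.935 of the whole range. Lgr5 was 12.5 CPM there, with a gap of 0.879 of the range. For Lgr5 this held in CPM only: in TPM, which carries no TMM scaling, the vehicle livers were at 2.10, 2.05, 1.84 and 1.37, with vehicle 1 highest. Vehicle 2 also had the highest share of mitochondrially encoded transcripts, at 22.5%, and the lowest sum of proliferation markers among vehicle livers, at 38.9 CPM. Groups of 3 libraries were not tested in this way.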

How the results depend on the processing

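None of the alternatives reversed a difference that passed the test, since none of the 10 genes was called. In HFD against chow, 361 genes were called (249 higher, 112 lower), 672 without the filter on low counts and 865 with DESeq2, and of the 10 genes 1, Wnt9b, was called in each of these alternatives. Leaving out 1 library gave 86 to 681 called genes and 0 to 1 of the 10, and over all its alternatives the adjusted p of Wnt9b ran from 0.000782 to 0.255. In SSO against vehicle, 71 genes were called, 37 with library size alone, 205 without the filter and 1137 with DESeq2, with 0 of the 10 genes in each. Leaving out 1 library gave 0 to 2646 called genes: 2646 without vehicle 2, 364 without vehicle 4, 16 without vehicle 3 and 0 without vehicle 1 or any SSO library. It gave 0 to 2 of the 10 genes, the 2 being Glul and Tbx3 without vehicle 2. Scaling by library size alone moved the median log2 fold change of all genes by 0.15 in the diet and by -0.16 in the inhibitor comparison, and called 336 genes up against 60 down with HFD, and 33 up against 4 down with SSO (50 and 21 with TMM).

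Same-numbered libraries did not visibly vary together (r from -0.11 to 0.02 in the diet and from -0.07 to 0.03 in the inhibitor experiment). Libraries of different numbers had r from -0.15 to 0.17 and from -0.05 to 0.06. So few pairs cannot exclude a paired design. A replicate block gave 206 called genes in the diet and 47 in the inhibitor comparison, with 0 of the 10 genes in both.

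Signs near 0 turned. The log2 fold change of Nkd1 in HFD livers was 0.0135 with library size alone. In SSO livers, Rspo3 gave 0.0143 and Lgr5 0.000137 with limma-voom, and Znrf3 -0.13 with library size alone. With 1 library left out, Rspo3 ran from -0.43 to 0.0616, Lgr5 from -0.28 to 0.25, Nkd1 from -0.0120 to 0.38 and Znrf3 from -0.0026 to 0.0726 in that comparison. The cause was not tested. Of 560 counts of called genes recomputed for the lists, 520 stayed within 1.5 times and 40 moved. A count that stayed at 0 was scored as staying, and the Wnt lists had 0 called genes in both main fits. The 520 thus say little of how stable the called zonation genes were. The lowest counts, 13 for Wnt2 and Wnt9b in vehicle 4, limit the precision of the ligands, and 3 or 4 libraries a group leave intervals of 0.34 to 2.01 log2 units on either side.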
